A study of Mus musculus with 17 samples.

Results

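Genes of the response to endoplasmic reticulum (ER) stress and of the integrated stress response were followed in bulk RNA-seq libraries of sorted synovial macrophages, the macrophages of the membrane that lines joints. The genes were chosen by symbol, as sensors, transcription factors, ER chaperones, disulfide isomerases, degradation factors, feedback regulators and amino acid enzymes of these pathways, by a rule that uses no measured value. All 38 listed symbols were among the 22859 genes of the count table, and 37 of them were among the 15272 genes with enough counts to be tested. The remaining gene, Chac1, which encodes a glutathione-degrading enzyme induced by ATF4, had at most 3 counts in 15 of 17 libraries and was not tested.

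Every library came from adult mice labelled as Fcgr2b knockouts, controls included, so that all groups lacked by label the inhibitory IgG receptor and no group had a normal gene. Fcgr2b-KO mice given immune complexes (IC, ovalbumin bound by rabbit antibody) into a vein were culled 8 h later and compared with control mice. Synovium was digested with collagenase, and 3 macrophage subsets were sorted from each, carrying LYVE1 and CX3CR1 (LYVE1+CX3CR1+), MHCII without CD11c (MHCII+CD11c-), or both MHCII and CD11c (MHCII+CD11c+), with 3 libraries in each of the 6 groups but for the last of these after IC, with 2. They are called LYVE1+, CD11c- and CD11c+ macrophages from here on, and the latter both carry MHCII. Whether a library held 1 animal or a pool was not stated for these groups, so p-values measure the spread between libraries.

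ER stress is sensed by 3 proteins of the ER membrane. IRE1 (gene Ern1) splices the Xbp1 mRNA, PERK (gene Eif2ak3) phosphorylates the translation factor eIF2alpha, and ATF6 is cut in the Golgi to release a transcription factor. XBP1 and ATF6 raise chaperones and degradation factors, while PERK and other eIF2alpha kinases form the integrated stress response, in which ATF4 is translated and raises genes of amino acid supply together with Ddit3 (CHOP). Splicing of Xbp1, phosphorylation of eIF2alpha and cleavage of ATF6 are not seen in counts per gene, and in bulk samples fewer cells of a type and less RNA per cell cannot be told apart.

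Depth ran from 2301913 to 7248939 counts in a library. Drawn down to the same depth, the 3 LYVE1+ libraries after IC had 11547, 13461 and 13847 genes with at least 1 count, and the others 13816 to 17678, with CD11c+ control replicate 3 at 13816 and the rest at 15232 or more. Fcgr2b had between 167 and 1168 counts in the 17 libraries labelled as knockouts. Counts per gene do not show whether these reads lie outside the deleted part, so they check nothing about the genotype. Summed levels of 6 macrophage markers lay between 7370 and 13979 CPM (counts scaled to a common library size, with TMM factors) in every library. Lyz2 was the largest part of this sum. The other markers on the list were all lower in CD11c+ than in LYVE1+ controls, without overlap. Mertk was at 15.5, 55.5 and 19.7 CPM in CD11c+ controls and at 210, 237 and 227 in LYVE1+ controls. Csf1r was at 706, 714 and 670 CPM in the former and at 2810, 2374 and 3361 in the latter. In sum, the 6 LYVE1-side and 4 MHCII-side markers parted LYVE1+ from MHCII+ libraries. MHCII-side sums were 19.8 to 156 CPM in LYVE1+ libraries and 11130 CPM or more in MHCII+ libraries. LYVE1-side sums were 3847 CPM or more in LYVE1+ and 3367 CPM or less in MHCII+ libraries. Taken singly, Cx3cr1, Vsig4 and Sparc parted LYVE1+ from CD11c- libraries, while Lyve1, Timd4 and Folr2 overlapped. Lyve1 was at 1727, 1801 and 2338 CPM in LYVE1+ controls and at 2337, 1455 and 2458 in CD11c- macrophages after IC. Itgax (CD11c) was at 275 to 443 CPM in CD11c+ libraries and at 16.0 CPM or less elsewhere. Summed markers of other cells were lower, with maxima of 229 CPM for neutrophils, 1153 CPM for monocytes, 555 CPM for dendritic cells, 118 CPM for fibroblasts, 56.7 CPM for plasma cells, 32.1 CPM for B cells, 29.3 CPM for endothelium, 18.4 CPM for erythroid cells and 13.4 CPM for the 2 of 4 T cell genes that were measured.

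DNA elements known to serve these pathways were looked for in the RefSeq promoter windows (GRCm38.p6, 250 bases before to 50 bases after the gene start), which were at hand for 34 of the 38 genes. The ER stress response element (ERSE), bound by NF-Y together with ATF6 or XBP1, was searched as CCAAT, then any 9 bases, then CCACG, on both strands. It was present in 8 of 34 windows of these genes (23.5%), against 0.172% of the windows of all tested genes and 0.130% of all 27025 windows. The 9 sites are shown because their genes are compared with the others below, with the element in capitals, 11 bases on each side, on the strand of the gene, and with the position of the first base of the element relative to the gene start.
Hspa5 (chr2:34772025-34772043, + strand, -65): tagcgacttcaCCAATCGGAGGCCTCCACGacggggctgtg
Calr (chr8:84847075-84847093, - strand, -162): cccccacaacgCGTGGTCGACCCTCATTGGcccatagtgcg
Canx (chr11:50325800-50325818, - strand, -145): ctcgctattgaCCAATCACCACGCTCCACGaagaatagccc
Hsp90b1, distal (chr10:86705638-86705656, - strand, -212): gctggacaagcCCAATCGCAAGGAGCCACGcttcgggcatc
Hsp90b1, proximal (chr10:86705533-86705551, - strand, -107): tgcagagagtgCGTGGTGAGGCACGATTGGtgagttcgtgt
Creld2 (chr15:88819520-88819538, + strand, -126): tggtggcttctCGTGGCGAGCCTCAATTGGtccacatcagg
Dnajc3 (chr14:118937827-118937845, + strand, -105): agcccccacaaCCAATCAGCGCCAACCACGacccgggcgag
Pdia6 (chr12:17266491-17266509, + strand, -98): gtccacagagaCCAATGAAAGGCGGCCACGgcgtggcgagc
Syvn1 (chr19:6046532-6046550, + strand, -44): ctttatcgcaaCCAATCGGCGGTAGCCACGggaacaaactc

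Of the 8, 6 are chaperone genes, and the others encode a disulfide isomerase (Pdia6) and a ubiquitin ligase of ER-associated degradation (Syvn1). In Calr, Creld2 and the proximal site of Hsp90b1 the element reads on the opposite strand. The 250 bases before the start of Hspa5, the gene of the chaperone BiP and the classic gene of this response, hold the full element in capitals.
Hspa5 (chr2:34771840-34772089, + strand): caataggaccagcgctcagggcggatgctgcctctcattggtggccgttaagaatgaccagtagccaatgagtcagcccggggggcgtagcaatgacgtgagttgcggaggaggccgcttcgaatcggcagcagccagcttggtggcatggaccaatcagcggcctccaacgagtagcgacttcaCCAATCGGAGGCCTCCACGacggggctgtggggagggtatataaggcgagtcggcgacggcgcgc

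The window of Sdf2l1, a chaperone cofactor with large differences between subsets below, holds no full element. It holds 3 copies of the CCACG part, each on the opposite strand, where it reads CGTGG and is in capitals.
Sdf2l1 (chr16:17132384-17132633, - strand): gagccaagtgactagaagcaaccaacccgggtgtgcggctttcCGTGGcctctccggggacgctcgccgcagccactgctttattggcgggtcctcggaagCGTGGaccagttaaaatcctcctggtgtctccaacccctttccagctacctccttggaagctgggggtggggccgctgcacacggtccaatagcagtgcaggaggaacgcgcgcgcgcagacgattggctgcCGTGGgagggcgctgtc

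CCACG alone was in 76.5% of these genes' windows and in 46.4% of the windows of tested genes, and it overlaps the ERSE by construction. The C/EBP-ATF response element (CARE), bound by ATF4 with C/EBP partners and searched as TGATGNAA on both strands, was in 6 of 34 windows (17.6%), against 2.37% of the windows of tested genes and 4.06% of all windows. The UPR element searched as TGACGTGG was in 0 of 34 windows and in 0.872% of the windows of tested genes. A CARE site of each of these 6 genes is shown in the same way.
Asns (chr6:7693225-7693232, - strand, -23): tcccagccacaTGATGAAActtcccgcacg
Aars (chr8:111033851-111033858, + strand, 10): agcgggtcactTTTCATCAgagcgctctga
Chac1 (chr2:119351049-119351056, + strand, -193): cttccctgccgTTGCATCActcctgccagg
Herpud1 (chr8:94386317-94386324, + strand, -112): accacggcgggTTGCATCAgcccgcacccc
Nupr1 (chr7:126625573-126625580, - strand, -110): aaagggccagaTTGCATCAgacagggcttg
Trib3 (chr2:152344039-152344046, - strand, 15): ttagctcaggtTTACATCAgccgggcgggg

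The genes with an ERSE and those with a CARE were different genes, the former mostly chaperones and the latter mostly regulators and amino acid enzymes. The genes were listed for the pathways that these elements are known to serve. An excess of ERSE or CARE over other genes is thus partly built into the choice and is not a test. A match of letters is a description and does not show that a factor binds there.

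Levels per length (CPM per kb of exon) spanned more than 3 orders of magnitude among the 38 genes. Calr (calreticulin, a lectin chaperone) stood highest with a mean of 528 CPM per kb over the 17 libraries, followed by Hspa5 with 337 and Atf4 with 289. Hsp90b1 (GRP94), Pdia3 (the isomerase ERp57), Nupr1 (a stress-induced chromatin protein) and Canx (calnexin) followed with means between 182 and 207. Ranges over the libraries overlapped between each of these and its neighbour in the order. Ddit3 had a mean of 72.0 CPM per kb and Xbp1 of 57.4. The sensors Atf6, Eif2ak3 and Ern1 lay between 11.1 and 17.5. At the low end stood Asns (asparagine synthetase) with 1.04, Trib3 (a pseudokinase that restrains ATF4 and CHOP) with 0.800, Phgdh (the entry enzyme of serine synthesis) with 0.544 and Chac1 with 0.119 CPM per kb. Of these, Phgdh had at most 3 counts in 11 libraries, Trib3 in 6 and Asns in 2, so fold changes of these 3 are not read here.

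**Figure D1:**
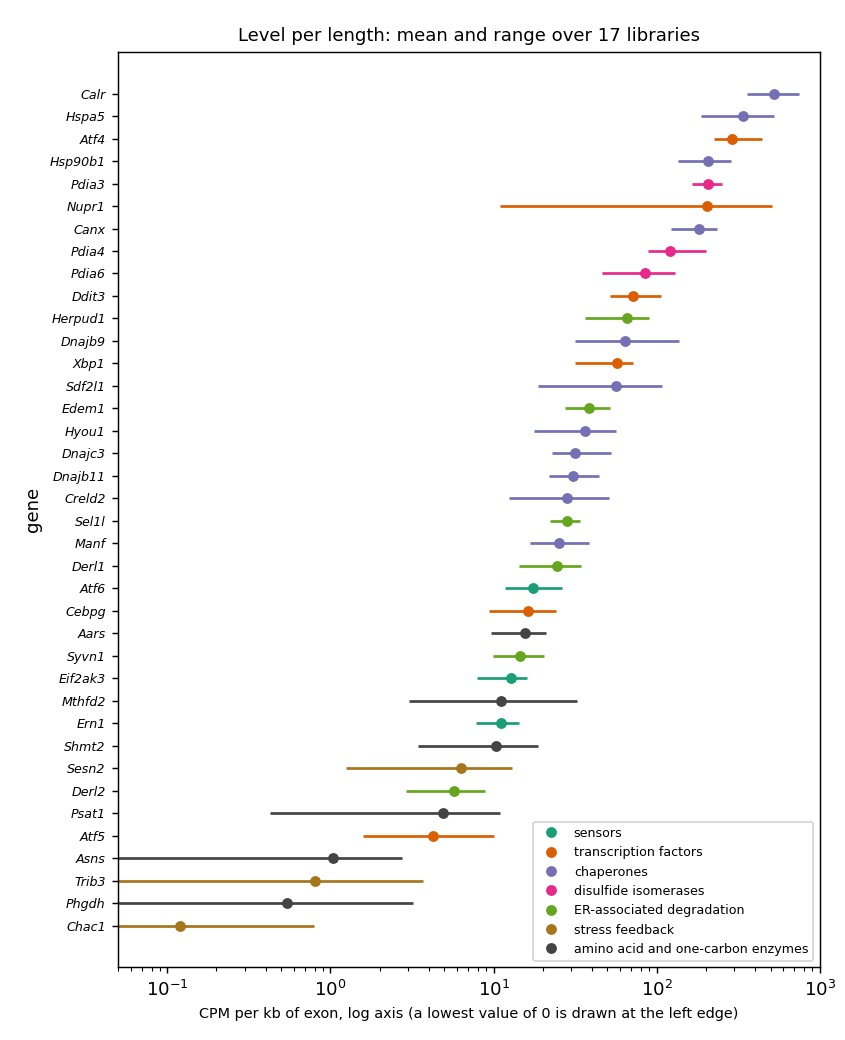
Level of each of the 38 genes in CPM per kb of exon on a log axis, coloured by role; points are means and lines the range over 17 libraries. Chaperones and isomerases fill most of the upper places and Calr is highest at 528, while Asns, Trib3, Phgdh and Chac1 stand at or below 1.04.

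Together the 38 genes took between 0.625% and 0.980% of the counts of a library. Their summed level was 7108 ± 494 CPM (SD, n = 3) in LYVE1+ control libraries and 6265 ± 257 (n = 3) after IC. In CD11c- macrophages it was 7351 ± 325 (n = 3) in controls and 9214 ± 1093 (n = 3) after IC, and in CD11c+ macrophages 7778 ± 539 (n = 3) and 8791 ± 380 (n = 2). Between 51.4% and 59.3% of the members' counts in a library came from Hspa5, Calr, Canx, Hsp90b1 and Pdia3. A single library stood apart. CD11c- replicate 3 after IC had the highest level of all 17 libraries for 13 of the 37 tested genes, against 8.04% of all tested genes.

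**Figure D2:**
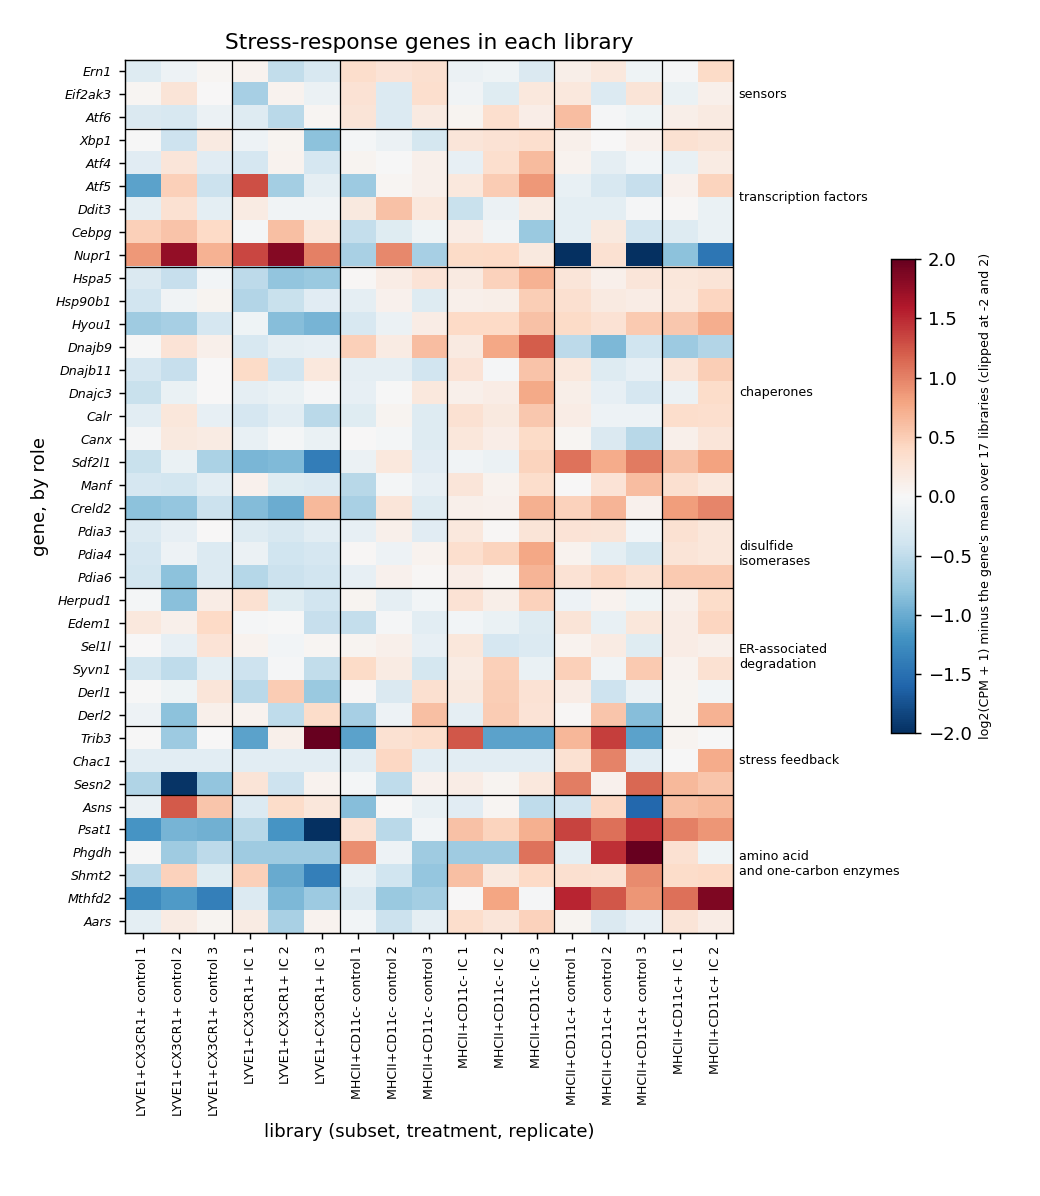
log2(CPM + 1) of each gene in each library minus its mean over the 17 libraries (colour, clipped at -2 and 2), with genes grouped by role and libraries by subset and treatment. CD11c- replicate 3 after IC is the highest of all libraries for 13 of 37 tested genes, and Sdf2l1, Psat1 and Mthfd2 are highest in CD11c+ libraries.

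IC against control asked whether circulating complexes changed these genes within a subset. None of the 37 tested genes passed the test (edgeR quasi-likelihood, Benjamini-Hochberg adjusted p under 0.05 over all tested genes) in any of the 3 subsets. The background was low, since 0.963% of all tested genes were called in LYVE1+, 0.701% in CD11c- and 0.216% in CD11c+ macrophages. At an unadjusted p under 0.05 there were 4 of the 37 genes in LYVE1+ macrophages (1 higher and 3 lower after IC), 11 in CD11c- (10 higher and 1 lower) and 2 in CD11c+ (both higher), beside 14.1%, 9.99% and 5.21% of all tested genes. DESeq2 and voom with quality weights also called 0 of the genes in each subset.

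The fitted values leaned differently in the 3 subsets. In CD11c- macrophages 32 of 37 genes had a positive log2 fold change after IC, with a median of 0.31, while the median of all tested genes was -0.03 and 47.8% of them were positive. In LYVE1+ macrophages 15 of 37 were positive with a median of -0.12, close to the median of all tested genes of -0.14. Without IC replicate 2 or 3 that median was 0.04 or 0.01, so its sign rests on single libraries. In CD11c+ macrophages 24 were positive with a median of 0.11, against 0.01 for all tested genes. In CD11c- macrophages the IC libraries lay wholly above the controls for 14 of the 37 genes (8.72% of all tested genes) and wholly below for 2 (8.48%). Without replicate 3 after IC, they lay wholly above for 15 of the 37, against 12.6% of all tested genes. In CD11c+ macrophages 12 genes had all IC libraries above all controls (14.1% of all tested genes) and 1 had them below (9.02%). In LYVE1+ macrophages these numbers were 2 above (4.95%) and 6 below (16.7%), the latter near the background.

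Marker sums moved with IC as well. In CD11c- macrophages the genes that mark the LYVE1+ side summed to 1021 to 1903 CPM in controls and 1844 to 3367 after IC, and those of the MHCII+ side to 16325 to 17607 and then 11130 to 11574. Dendritic cell markers there were at 89.9 to 209 CPM in controls and 64.4 to 82.0 after IC, neutrophil markers at 0.334 to 134 and then 1.11 to 18.7, and monocyte markers at 225 to 486 and then 195 to 352. The MHCII+ side and dendritic cell sums did not overlap between controls and IC, and the other 3 did. In LYVE1+ macrophages the LYVE1+ side went in sum from 3847 to 4735 CPM in controls to 5904 to 7015 after IC, and the MHCII+ side went from 102 to 156 down to 19.8 to 49.2. In CD11c+ macrophages neutrophil markers were at 63.7 to 229 CPM in controls and 0.550 to 1.62 after IC. Their part in the lean of the listed genes was not tested.

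**Figure D3:**
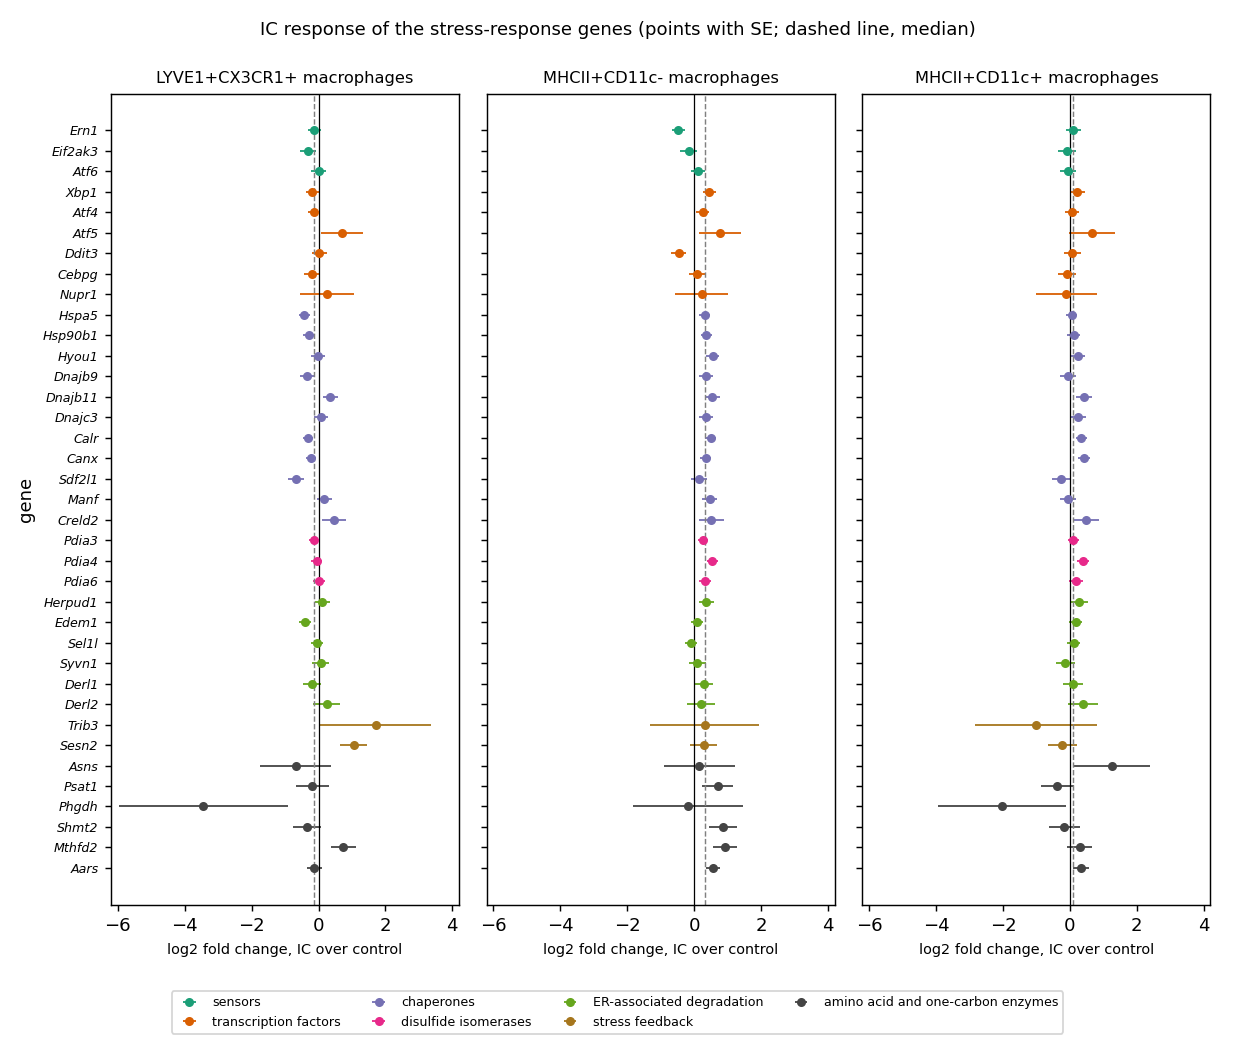
Fitted log2 fold change of IC over control with its SE for the 37 tested genes in each subset, coloured by role, with a dashed line at their median. The median is -0.12 in LYVE1+, 0.31 in CD11c- and 0.11 in CD11c+ macrophages, and none of the points passes the adjusted test.

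Averaged over the 3 subsets, 0 of 37 genes were called, where 3.35% of all tested genes were, and 6 had an unadjusted p under 0.05, all higher after IC. Among all tested genes 17.7% had such a p, so the count of 6 was near the background. The nearest was Dnajb11 (a BiP cochaperone), with an average log2 fold change of 0.44 ± 0.13 (SE) and an adjusted p of 0.0643 in edgeR. It was at 76.7, 70.8 and 97.96 CPM in controls and at 127, 74.6 and 113 after IC in LYVE1+, at 85.7, 85.9 and 74.2 and then at 118, 95.6 and 144 in CD11c-, and at 113, 80.99 and 86.98 and then at 116 and 137 in CD11c+ macrophages. IC libraries lay above all controls in both MHCII+ subsets and overlapped them in LYVE1+ macrophages. DESeq2 called it with a log2 fold change of 0.43 and an adjusted p of 0.0425, so its call depends on the tool.

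The difference of the IC responses between subsets was tested directly. None of the 37 genes passed for LYVE1+ minus CD11c- (0.0262% of all tested genes called), for LYVE1+ minus CD11c+ (0.0327%) or for CD11c+ minus CD11c- (0%), and 9, 4 and 0 of them had an unadjusted p under 0.05, beside 7.54%, 8.02% and 3.25% of all tested genes. DESeq2 and voom called 0 of the genes in each of the 3. In the first of these differences 30 of 37 values were negative, with a median of -0.32, and all 11 chaperones were, with values from -0.81 to -0.05. All tested genes had a median of -0.16 there, which the alternative size factors (RLE) brought to -0.03, so the lean of the members is best read relative to it.

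Subset against subset gave calls. Among control mice, 9 of 37 genes differed between LYVE1+ and CD11c+ macrophages, where 15.2% of all tested genes did. Of these 9, 8 were lower in LYVE1+ (7.4% of all tested genes) and 1 was higher (7.83%). Between CD11c+ and CD11c- controls, 4 of 37 differed (8.66% of all tested genes), 3 of them higher in CD11c+ (3.67%) and 1 lower (4.99%). Between LYVE1+ and CD11c- controls, 0 of 37 were called, beside 1.56% of all tested genes, and 9 had an unadjusted p under 0.05 (10.2% of all tested genes). DESeq2 called 0 and voom 2 of them.

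After IC, 9 of 37 genes differed between LYVE1+ and CD11c- macrophages (5.54% of all tested genes), and all 9 were lower in LYVE1+ (4.79%). Another 9 calls came between LYVE1+ and CD11c+ macrophages (11.9%), again all lower in LYVE1+ (8.42%). Between CD11c+ and CD11c- macrophages 1 of 37 differed (4.03%), and it was lower in CD11c+ (1.75%). The median log2 fold change of the 37 genes was -0.46 against CD11c- and -0.42 against CD11c+ macrophages, where all tested genes had -0.14 and -0.12. Without CD11c- replicate 3 after IC, 4 of the 9 calls against that subset were left, Hspa5, Hyou1, Pdia4 and Sdf2l1.

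Control and IC libraries are separate samples, so the subset differences were measured in each without shared libraries, though the fit estimated the spread from all 17 libraries together. Of the 9 genes called between LYVE1+ and CD11c+ controls, 6 (66.7% of each list) were also called after IC, namely Hspa5, Hyou1, Sdf2l1, Pdia6, Psat1 and Mthfd2, and each was lower in LYVE1+ macrophages both times. The sign of the difference was the same in both treatments for 29 of 37 genes. Against CD11c- macrophages 29 of 37 signs were the same, although 0 genes were called in controls and 9 after IC. The shares of all tested genes that were called in both treatments or kept their sign were not counted. The recurrence is thus not read as particular to these genes. At equal depth, LYVE1+ libraries after IC had 11547 to 13847 detected genes, where replicate 3 of the CD11c+ controls had 13816 and all others at least 15232, and the part of this in the differences after IC was not tested beyond drawing all libraries to equal depth, which left 9 calls against CD11c- and 8 against CD11c+ macrophages.

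**Figure D4:**
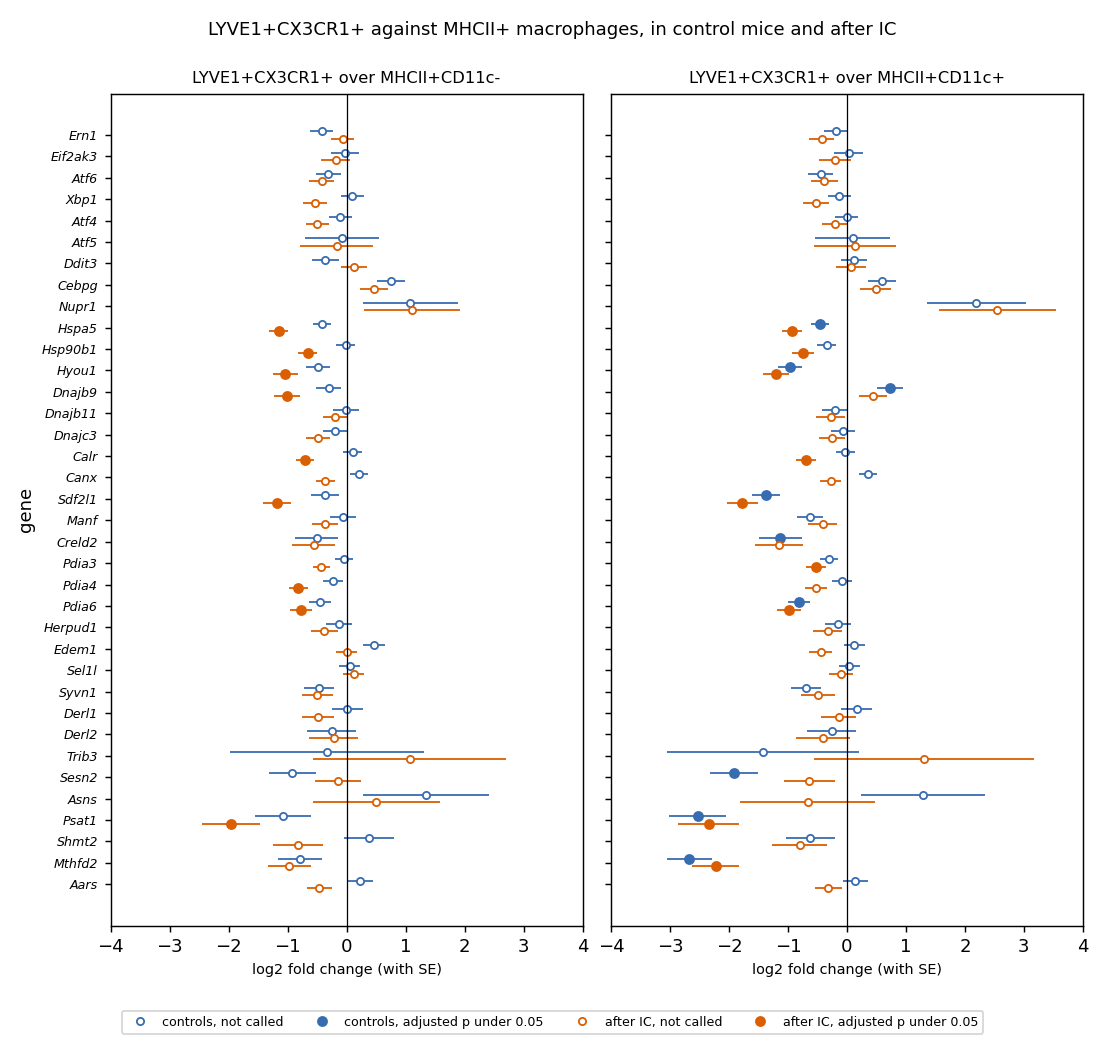
Fitted log2 fold change of LYVE1+ over each MHCII+ subset with its SE, in controls (blue) and after IC (orange), filled where the adjusted p was under 0.05; Phgdh is left out because its LYVE1+ libraries after IC were all at 0. All filled points but Dnajb9 in controls lie below 0, and 9 genes are filled after IC in each panel.

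Sensors gave no calls. Ern1, Eif2ak3 and Atf6 were called in none of the 13 contrasts. Group means of Ern1 ranged from 76.0 to 111 CPM, of Eif2ak3 from 53.0 to 67.5 and of Atf6 from 106 to 143. Ern1 had the only unadjusted p under 0.05 among sensors after IC, in CD11c- macrophages, where it was at 111 ± 2.78 CPM in controls and 79.5 ± 6.01 after IC (SD, n = 3 each) with no overlap, and an adjusted p of 0.356 in edgeR.

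Among the 6 transcription factors, Atf4, the central factor of the integrated stress response, was at 419, 581 and 420 CPM in LYVE1+ control libraries and at 389, 515 and 390 after IC. In CD11c- macrophages it was at 512, 487 and 527 in controls and at 438, 619 and 767 after IC. In CD11c+ macrophages it was at 518, 432 and 475 in controls and at 444 and 553 after IC. Groups overlapped in every subset, and the log2 fold changes after IC were -0.13 ± 0.19, 0.26 ± 0.19 and 0.07 ± 0.21 (SE), with adjusted p of 0.76 or more in edgeR.

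Xbp1, the factor spliced by IRE1, was at 133, 101 and 152 CPM in LYVE1+ controls and at 126, 139 and 75.5 after IC. In CD11c- macrophages it was at 131, 124 and 106 in controls and at 160.1, 164 and 171 after IC, and in CD11c+ macrophages at 144, 135 and 143 and then at 166 and 161. IC libraries lay above all controls in both MHCII+ subsets and overlapped them in LYVE1+ macrophages. The log2 fold changes were 0.45 ± 0.20 and 0.22 ± 0.22 in the MHCII+ subsets (SE), with adjusted p of 0.44 and 1.0 in edgeR.

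Ddit3 (CHOP), the factor tied to death after lasting stress, went the other way in CD11c- macrophages, with 72.3, 94.9 and 73.2 CPM in controls and 46.1, 58.1 and 71.3 after IC. All IC libraries there were below all controls, and the log2 fold change was -0.46 ± 0.22 (SE; adjusted p = 0.51 in edgeR). In LYVE1+ macrophages it was at 55.3, 78.1 and 54.8 in controls and at 70.8, 60.1 and 60.2 after IC, and in CD11c+ macrophages at 55.3, 55.4 and 62.4 and then at 64.2 and 57.4. These groups overlapped.

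The other 3 factors were called in no contrast. Atf5, a factor translated like ATF4, was low, with group means from 6.01 to 11.8 CPM. Cebpg, a partner of ATF4, had group means from 65.96 to 111 CPM and was highest in LYVE1+ controls. Nupr1 was the most variable, with 270.5 ± 116 CPM in LYVE1+ controls and 321 ± 95.7 after IC, 127 ± 90.2 and 149 ± 11.98 in CD11c- macrophages, and 58.0 ± 76.4 and 54.9 ± 16.9 in CD11c+ macrophages (SD). The large SD of the CD11c+ controls came from values of 18.9, 146 and 9.08 CPM.

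The chaperones carried most of the subset calls. Hspa5 (BiP) was at 994, 883 and 1167 CPM in LYVE1+ control libraries and at 842, 702 and 726 after IC. It was at 1236, 1343 and 1477 in CD11c- controls and at 1377, 1684 and 1977 after IC. CD11c+ libraries had 1433, 1309 and 1445 in controls and 1429 and 1461 after IC. Every LYVE1+ library was thus below every MHCII+ library. After IC the LYVE1+ level was lower by a log2 fold change of -1.15 ± 0.16 against CD11c- (adjusted p = 6.45e-05 in edgeR) and of -0.93 ± 0.17 against CD11c+ macrophages (adjusted p = 0.000575). In controls the values were -0.41 ± 0.15 (adjusted p = 0.26) and -0.46 ± 0.15 (adjusted p = 0.045).

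Within subsets, IC and control libraries of Hspa5 did not overlap in LYVE1+ macrophages, where IC was lower with a log2 fold change of -0.42 ± 0.15 (adjusted p = 0.20 in edgeR). They overlapped in CD11c- (0.31 ± 0.15, adjusted p = 0.51) and in CD11c+ macrophages (0.05 ± 0.17, adjusted p = 1.0). The difference of the responses, LYVE1+ minus CD11c-, was -0.74 ± 0.22 with an adjusted p of 0.38.

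Calr and Canx, the lectin chaperones that hold glycoproteins in the folding cycle, lay on opposite sides of their controls after IC, without passing the test. Calr was at 981, 1329 and 1007 CPM in LYVE1+ controls and at 899, 975 and 782 after IC, all lower. In CD11c- macrophages it was at 958, 1174 and 950 in controls and at 1395, 1295 and 1640 after IC, all higher. In CD11c+ macrophages it was at 1261, 1059 and 1053 and then at 1439 and 1422, again all higher. The log2 fold changes were -0.32 ± 0.16, 0.49 ± 0.16 and 0.35 ± 0.17 (SE), with adjusted p of 0.37, 0.20 and 1.0 in edgeR.

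In controls Calr did not differ between subsets beyond its spread (log2 fold changes of LYVE1+ of 0.11 ± 0.16 and -0.02 ± 0.16, adjusted p of 0.96 and 0.95). After IC it was lower in LYVE1+ than in CD11c- (-0.70 ± 0.16, adjusted p = 0.0085) and than in CD11c+ macrophages (-0.69 ± 0.17, adjusted p = 0.0097). The test of the change itself, the difference of IC responses between LYVE1+ and CD11c- macrophages, gave -0.81 ± 0.22 with an adjusted p of 0.33, so a change of the subset difference with IC is not shown.

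Canx was at 758, 886 and 863 CPM in LYVE1+ controls and at 696, 753 and 704 after IC. It was at 775, 751 and 646 in CD11c- controls and at 901, 846 and 1010 after IC, and at 794, 630 and 527 in CD11c+ controls and at 826 and 912 after IC. As for Calr, IC libraries were all below the controls in LYVE1+ and all above them in both MHCII+ subsets. The log2 fold changes were -0.22 ± 0.16, 0.34 ± 0.16 and 0.42 ± 0.17 (SE), with adjusted p of 0.575, 0.46 and 0.82 in edgeR, and Canx was called in no contrast.

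Sdf2l1, a cofactor that keeps ER proteins from aggregating, was graded across the subsets. It was at 40.9, 51.1 and 35.6 CPM in LYVE1+, at 51.4, 64.7 and 47.8 in CD11c- and at 120, 94.6 and 115 in CD11c+ controls. After IC the levels were 29.3, 29.9 and 20.7, then 53.2, 51.5 and 76.8, then 84.0 and 98.8. CD11c+ libraries were above all others. LYVE1+ macrophages were lower than CD11c+ by a log2 fold change of -1.37 ± 0.24 in controls (adjusted p = 0.00019 in edgeR) and of -1.77 ± 0.26 after IC (adjusted p = 6.2e-05). Against CD11c- macrophages the value was -0.37 ± 0.24 in controls (adjusted p = 0.72) and -1.18 ± 0.24 after IC (adjusted p = 0.0045).

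Between the MHCII+ subsets, Sdf2l1 was higher in CD11c+ controls (1.01 ± 0.24, adjusted p = 0.0069), a call that was lost when surrogate variables were added (adjusted p = 0.15, the highest over its alternatives, which started at 0.00067). In LYVE1+ macrophages the IC libraries of Sdf2l1 were all below the controls (-0.67 ± 0.24, adjusted p = 0.20), the smallest p of the 37 genes there.

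Dnajb9 (ERdj4, a BiP cochaperone) had another order of subsets. It was at 145, 176 and 157 CPM in LYVE1+, at 202, 164 and 223 in CD11c- and at 100, 77.8 and 110 in CD11c+ controls. After IC it was at 117, 128 and 129, at 164, 250 and 339, and at 87.6 and 96.2. The lowest levels of Dnajb9 were thus in CD11c+ macrophages. Of the 11 chaperones, 8 had a positive log2 fold change of CD11c+ over CD11c- in controls and 6 after IC. CD11c+ was lower than CD11c- by a log2 fold change of -1.03 ± 0.22 in controls (adjusted p = 0.0028 in edgeR) and of -1.45 ± 0.25 after IC (adjusted p = 0.00095).

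LYVE1+ was higher than CD11c+ for Dnajb9 in controls (0.73 ± 0.22, adjusted p = 0.021), a call kept in 12 of 17 alternatives and lost, for instance, with RLE size factors. After IC LYVE1+ was lower than CD11c- (-1.01 ± 0.22, adjusted p = 0.0058).

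Hyou1 (GRP170, the nucleotide exchange factor of BiP) was at 99.1, 102 and 128 CPM in LYVE1+, at 130, 150 and 180 in CD11c- and at 211, 198 and 232 in CD11c+ controls. After IC it was at 153, 89.7 and 84.6, at 215, 214 and 244, and at 236 and 267. LYVE1+ libraries lay below CD11c+ libraries throughout. The log2 fold change was -0.96 ± 0.21 in controls (adjusted p = 0.0018 in edgeR) and -1.20 ± 0.23 after IC (adjusted p = 0.000785), and against CD11c- it was -1.04 ± 0.21 after IC (adjusted p = 0.0035).

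Of the other chaperones, Hsp90b1 was lower in LYVE1+ macrophages after IC against both MHCII+ subsets (-0.66 ± 0.17 and -0.74 ± 0.18, adjusted p of 0.018 and 0.0085). Creld2, a secreted protein induced by ER stress, was lower in LYVE1+ than in CD11c+ controls (-1.13 ± 0.37, adjusted p = 0.038). Dnajb11, Dnajc3 (an inhibitor of PERK that also serves BiP) and Manf (an ER-resident and secreted stress protein) were called in no contrast.

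In CD11c- macrophages all 11 chaperones had a positive log2 fold change after IC, from 0.14 to 0.55, and 6 of them had all IC libraries above all controls, as 8.72% of all tested genes did. In LYVE1+ macrophages 4 of 11 were positive and 5 had all IC libraries below all controls, as 16.7% of all tested genes did.

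The disulfide isomerases, which form and reshuffle the cysteine bonds of ER proteins, followed the chaperones. Pdia4 was at 225, 263 and 235 CPM in LYVE1+ controls and at 260, 214 and 224 after IC. In CD11c- macrophages it was at 286, 265 and 296 in controls and at 358, 387 and 483 after IC, and in CD11c+ macrophages at 296, 246 and 222 and then at 337 and 332. IC libraries lay above the controls in both MHCII+ subsets and overlapped them in LYVE1+ macrophages. The log2 fold changes were -0.05 ± 0.16, 0.54 ± 0.16 and 0.39 ± 0.18 (SE), with adjusted p of 0.95, 0.16 and 0.91 in edgeR. In CD11c- macrophages this was the smallest p of the 37 genes, and its adjusted p ranged from 0.088 to 0.67 over the alternatives.

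After IC Pdia4 was lower in LYVE1+ than in CD11c- macrophages (-0.81 ± 0.16, adjusted p = 0.0037). Pdia6 was lower in LYVE1+ than in CD11c+ macrophages both in controls (-0.81 ± 0.19, adjusted p = 0.0034) and after IC (-0.99 ± 0.20, adjusted p = 0.0020), and lower than in CD11c- after IC (-0.77 ± 0.19, adjusted p = 0.014). Pdia3 was called once, lower in LYVE1+ than in CD11c+ after IC (-0.52 ± 0.17, adjusted p = 0.042).

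**Figure D5:**
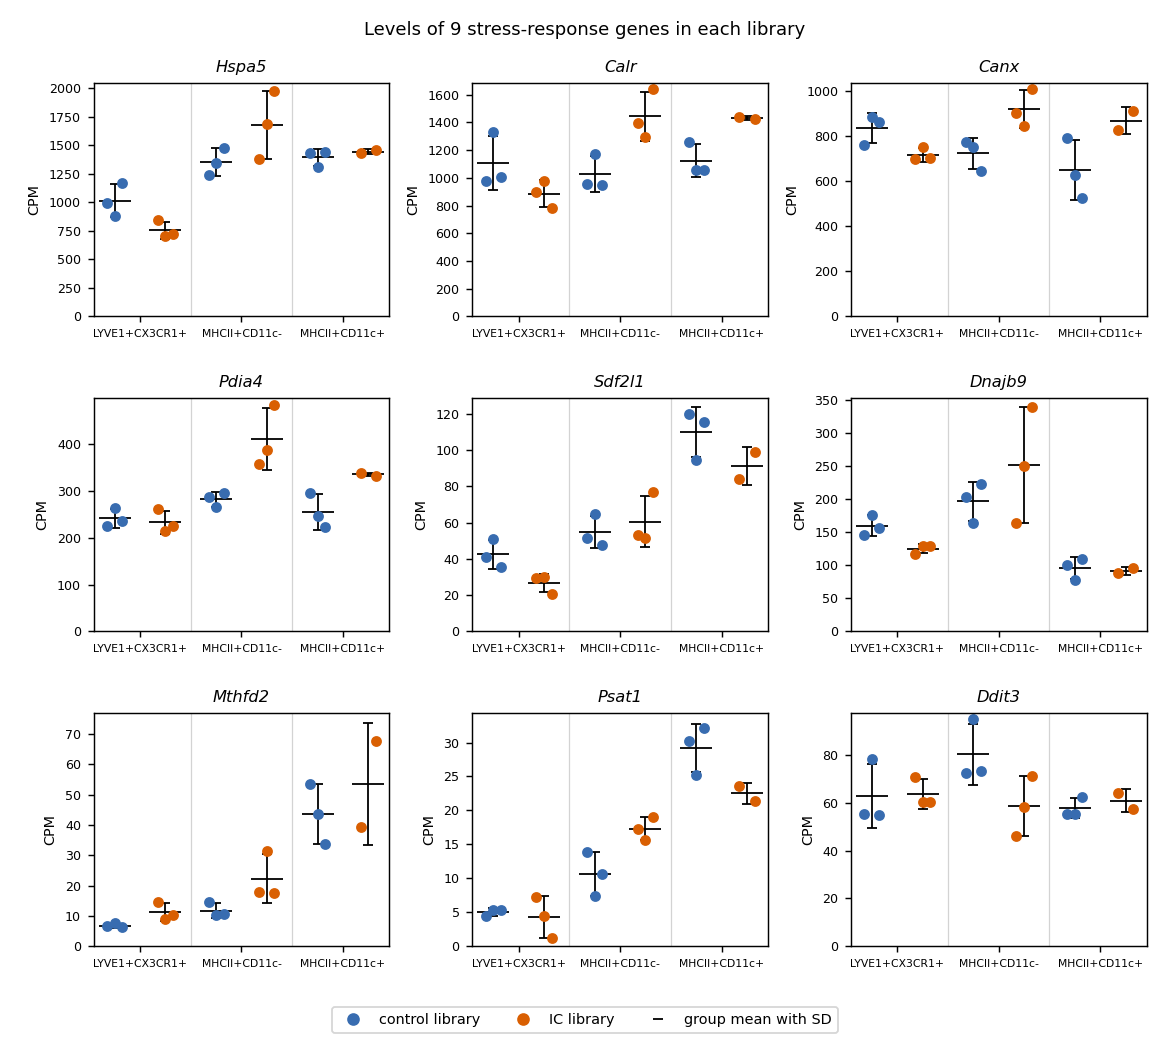
CPM of 9 genes in each library, controls in blue and IC in orange, with the group mean and SD as black bars. Hspa5 in every LYVE1+ library is below every MHCII+ library, Calr and Canx lie below their controls after IC in LYVE1+ and lie above them in both MHCII+ subsets, and Sdf2l1, Mthfd2 and Psat1 are highest in CD11c+ macrophages.

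Degradation factors showed no calls. Herpud1, Edem1, Sel1l, Syvn1, Derl1 and Derl2, which recognise, move and ubiquitinate misfolded ER proteins, were called in none of the 13 contrasts. Their group means ran from 19.8 CPM for Derl2 in LYVE1+ controls to 273 CPM for Edem1 in CD11c+ macrophages after IC. Edem1, a lectin that hands glycoproteins to degradation, was at 263 ± 26.3 CPM in LYVE1+ controls and at 200 ± 33.5 after IC (SD, n = 3 each), with no overlap and an adjusted p of 0.32 in edgeR.

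Among the feedback genes, Sesn2 (sestrin 2, which restrains mTORC1 when amino acids are short) was at 12.6, 4.32 and 11.02 CPM in LYVE1+ controls and at 23.7, 14.5 and 20.7 after IC. All IC libraries were higher, and the log2 fold change was 1.05 ± 0.40 (SE; adjusted p = 0.22 in edgeR). It was, in CD11c- macrophages, at 19.2, 13.6 and 21.1 in controls and 21.95, 20.4 and 22.8 after IC, and in CD11c+ macrophages at 41.3, 21.0 and 45.0 and then at 31.6 and 29.5. In controls LYVE1+ was lower than CD11c+ by a log2 fold change of -1.91 ± 0.40 (adjusted p = 0.0014). After IC the value was -0.64 ± 0.43 (adjusted p = 0.38), and the test of this change with IC had an adjusted p of 0.597.

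The amino acid and one-carbon enzymes gave the largest called subset differences. Nupr1, called in no contrast, had a log2 fold change of 2.55 for LYVE1+ over CD11c+ after IC. Mthfd2, the mitochondrial enzyme of the folate cycle, was at 6.77, 7.57 and 6.28 CPM in LYVE1+, at 14.5, 10.2 and 10.7 in CD11c- and at 53.4, 43.7 and 33.7 in CD11c+ controls. After IC it was at 14.6, 9.13 and 10.4, at 17.96, 31.5 and 17.6, and at 39.2 and 67.6. CD11c+ libraries were above all others. LYVE1+ was lower than CD11c+ by a log2 fold change of -2.67 ± 0.37 in controls (adjusted p = 1.75e-05 in edgeR) and of -2.22 ± 0.39 after IC (adjusted p = 0.00042). CD11c+ was higher than CD11c- controls by 1.88 ± 0.36 (adjusted p = 0.0013). IC libraries lay above controls in LYVE1+ and CD11c- macrophages, with log2 fold changes of 0.73 ± 0.37 and 0.92 ± 0.36 and adjusted p of 0.38 and 0.33.

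Psat1, the second enzyme of serine synthesis, was at 4.41, 5.41 and 5.30 CPM in LYVE1+, at 13.9, 7.42 and 10.7 in CD11c- and at 30.2, 25.3 and 32.1 in CD11c+ controls, 3 levels without overlap. After IC it was at 7.31, 4.41 and 1.24, at 17.3, 15.7 and 18.99, and at 23.7 and 21.4, again in 3 separate levels. LYVE1+ was lower than CD11c+ by -2.53 ± 0.48 in controls (adjusted p = 0.00049 in edgeR) and -2.34 ± 0.52 after IC (adjusted p = 0.0036), and lower than CD11c- by -1.96 ± 0.49 after IC (adjusted p = 0.016). The difference between MHCII+ controls (1.45 ± 0.46, adjusted p = 0.048) was called in 7 of 17 alternatives.

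Aars, the alanyl-tRNA synthetase, was at 84.5, 64.7 and 77.2 CPM in CD11c- controls and at 112, 104 and 121 after IC, with no overlap (0.58 ± 0.21, adjusted p = 0.29 in edgeR). In LYVE1+ macrophages it was at 76.7, 98.9 and 90.98 and then at 98.01, 55.4 and 91.7, and in CD11c+ macrophages at 91.03, 71.9 and 78.3 and then at 105 and 97.7. Shmt2, the mitochondrial serine hydroxymethyltransferase, had group means from 16.1 to 32.7 CPM and was called in no contrast.

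Genes with an ERSE in the window leaned further down than the others in LYVE1+ against MHCII+ macrophages, in controls and after IC. Most of these 8 genes are chaperones, so element and role cannot be told apart here. The 11 chaperones had medians of -0.66 against CD11c- and -0.69 against CD11c+ after IC, and of -0.20 and -0.34 in controls. After IC all 8 genes with an ERSE were lower in LYVE1+ than in CD11c- macrophages. Their median log2 fold change was -0.61, with 4 calls (Hspa5, Calr, Hsp90b1 and Pdia6). The 25 tested genes with a window but no ERSE had a median of -0.22 and 4 calls. Against CD11c+ macrophages after IC the medians were -0.72 and -0.40, with 4 calls in each set. In controls the medians with and without an ERSE were -0.31 and -0.10 against CD11c-, with 0 calls in each set. They were -0.40 and -0.13 against CD11c+ controls, with 3 and 5 calls. The set without an ERSE includes Asns, Trib3 and Phgdh, whose fold changes are not read here. In the IC contrasts the medians of genes with and without an ERSE were -0.11 and -0.12 in LYVE1+, 0.35 and 0.26 in CD11c- and 0.22 and 0.10 in CD11c+ macrophages. Called differences were found with and without the element. Sdf2l1, Mthfd2, Psat1 and Hyou1 were not among the 8, while Hspa5 and Creld2 were. In LYVE1+ against CD11c- macrophages after IC, the log2 fold change was -1.15 for Hspa5 and -1.04 for Hyou1. The 5 tested genes with a CARE had no call in any contrast. Asns and Trib3, not read here, are among them, and at most 15.2% of all tested genes were called in a contrast. The absence of calls among these 5 thus shows little.

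Other genes of the same pathways came from a list of 107 symbols, of which 98 were tested. In IC against control, 1 passed the test in LYVE1+ (0.963% of all tested genes), 2 in CD11c- (0.701%) and 1 in CD11c+ macrophages (0.216%), and 9 in the average of the subsets (3.35%), all higher after IC. The single call in LYVE1+ macrophages was a share near the background. All calls within a subset fell among the 26 tested targets of the integrated stress response. Cebpb, a C/EBP factor that pairs with ATF4, was at 242, 159 and 251 CPM in LYVE1+ controls and 390.0, 344 and 397 after IC (0.79 ± 0.18, adjusted p = 0.028 in edgeR). It was, in CD11c- macrophages, at 159.7, 179.5 and 166 and then at 423, 340.1 and 376 (1.17 ± 0.18, adjusted p = 0.0011). In CD11c+ macrophages it was at 199.5, 158 and 159.6 and then at 312 and 305 (0.84 ± 0.19, adjusted p = 0.087). IC libraries were above all controls in each subset.

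Jdp2, an AP-1 repressor that binds CHOP, passed in CD11c- macrophages, from 48.2, 45.6 and 58.2 CPM to 171, 142 and 278 (1.96 ± 0.27, adjusted p = 0.00042). Gdf15, a secreted cytokine of the stress response, rose in CD11c+ macrophages from 5.74, 6.13 and 1.89 CPM to 24.1 and 40.9 (2.76 ± 0.58, adjusted p = 0.039). Gpt2, an alanine transaminase, had values of 31.1, 33.0 and 18.4 CPM in CD11c- controls and 159, 119 and 302 after IC (2.80 ± 0.61, adjusted p = 0.063). Both Cebpb and Jdp2 respond to many signals besides stress.

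Between subsets, 10 of the 98 other pathway genes were higher (7.83% of all tested genes) and 13 lower (7.4%) in LYVE1+ than in CD11c+ controls. After IC 1 was higher and 8 were lower, where 11.9% of all tested genes were called and 8.42% were lower, so these counts were not above the background. Against CD11c- macrophages 0 were called in controls (1.56% of all tested genes) and 2 were lower after IC (4.79%). The amino acid transporters Slc7a1 and Slc7a11 were lower in LYVE1+ than in CD11c+ both in controls (-1.55 ± 0.28 and -4.24 ± 0.84, adjusted p of 0.00027 and 0.0010 in edgeR) and after IC (-1.28 ± 0.30 and -3.29 ± 0.83, adjusted p of 0.0059 and 0.012). They were named after their values were seen.

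Plasma cells, which are rich in ER chaperones, were looked for by their own genes. Jchain was at 0.585 CPM or less and Mzb1 at 0 in 12 of 17 libraries and at most at 5.29 CPM. Tnfrsf17, the receptor BCMA, was at 6.19 to 12.4 CPM in CD11c- controls and 1.11 to 3.30 after IC, at 1.62 to 8.505 in LYVE1+ controls and 0 in all 3 after IC, and at most at 1.28 in CD11c+ libraries. A count of 0 allows up to 0.878 to 1.24 CPM in those 3 libraries. Its values after IC lay below all controls in CD11c- and LYVE1+ macrophages, and its part in the IC values was not tested. Sdc1, which other cells also express, had the highest levels in CD11c+ libraries, at 18.4 to 52.6 CPM. Summed dendritic cell markers were at 167 to 555 CPM and monocyte markers at 547 to 1153 CPM in CD11c+ libraries. In LYVE1+ libraries they were at 6.61 to 23.3 and 4.15 to 38.1 CPM. Sdf2l1, Mthfd2 and Psat1 were likewise higher in every CD11c+ library than in every LYVE1+ library. With IC in CD11c- macrophages, dendritic cell sums lay below all controls, while Mthfd2 and Psat1 lay above them. Monocyte sums and Sdf2l1 overlapped there. The part of dendritic cells and monocytes in the subset differences was not tested. Immediate early and heat shock genes that tissue digestion is known to raise summed to 12229 to 13020 CPM in LYVE1+ controls and 13729 to 16164 after IC. They summed to 12532 to 15907 CPM in CD11c- controls and 15617 to 16507 after IC, and to 8343 to 10658 CPM in CD11c+ controls and 11045 to 12016 after IC. The sums after IC lay above all controls in LYVE1+ and CD11c+ macrophages and overlapped them in CD11c- macrophages. Taken singly, the heat shock genes Hspa1a and Hspa1b lay above all controls after IC in every subset. In CD11c- macrophages Hspa1a went from 632, 429 and 549 CPM to 973, 1192 and 1721. Hspa1b went there from 645, 413 and 585 to 1167, 1429 and 2205. Both were highest of all libraries in CD11c- replicate 3 after IC. The other genes of the sum overlapped their controls in CD11c- macrophages. The part of all these genes in the values above was not tested.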

How the data were processed

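Gene counts from 17 bulk RNA-seq libraries were used as deposited. The authors trimmed reads with Trim Galore, checked them with FastQC, aligned them with HISAT2 and counted reads per gene with featureCounts, and the versions are not given in the sources used here. The deposited values are raw counts, not normalised. The table held 1 column that matched no library, which was not used. Genes passing edgeR's filterByExpr (minimum count 10) were fitted with TMM factors, 6 group means and the quasi-likelihood test (R 4.3.3, edgeR 4.0.16), with Benjamini-Hochberg adjustment over all genes tested. DESeq2 1.42.0, limma 3.58.1 (voom) and sva 3.50.0 served as alternatives, and the fit was tested on simulated data. Floors (3 counts) cover counting error only. The genes, lists and tests were chosen with earlier results of these data known. By rule, the value in every library was given for Hspa5, Atf4, Ddit3 and Xbp1, for any gene called in an IC contrast, for the 3 genes with the smallest p in each IC contrast and for the 3 called genes with the smallest p in each direction of a subset contrast, and other genes by range and count. Promoter windows came from RefSeq, and 1 matched site is not reported here. The check of protein ends was not run.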

Additional observations from a re-analysis of the deposited data

Results flagged for a closer look

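For 3 genes, every library after IC lay on one side of its controls in one subset and on the other side in another. Within a subset, between 4.95% and 16.7% of all tested genes had all IC libraries on a given side of the controls. The share of all tested genes on opposite sides in different subsets was not counted. The number of 3 is thus not read as particular to the listed genes. Calr had log2 fold changes after IC of -0.32 in LYVE1+, 0.49 in CD11c- and 0.35 in CD11c+ macrophages, with all libraries lower in the first and higher in the others. Canx had -0.22, 0.34 and 0.42 in the same order and the same pattern. Psat1 had 0.70 in CD11c- and -0.37 in CD11c+ macrophages, with all libraries higher in the former and lower in the latter. The differences of the responses did not pass edgeR's quasi-likelihood test. For LYVE1+ minus CD11c- the adjusted p was 0.329 for Calr and 0.561 for Canx, for LYVE1+ minus CD11c+ it was 0.42 and 0.435, and for Psat1 in CD11c+ minus CD11c- it was 1.0. The cause was not tested.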

How the results depend on the processing

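Depth limits Phgdh, Trib3, Asns and Chac1, and 35 values of these and other listed genes over all libraries were at or under 3 counts, or 46 at equal depth. Within each subset and in the differences of IC responses, 0 genes were called under every alternative run. For the average IC response the count went from 0 to 1 with DESeq2, without a filter and with a minimum count of 30 (Dnajb11 each time) and to 1 with surrogate variables (Mthfd2), and ranged from 0 to 1 when a library was left out. For LYVE1+ against CD11c- controls it went from 0 to 2 with voom (Cebpg and Edem1) and to 1 in a fit of only these groups. For LYVE1+ against CD11c+ controls it went from 9 to 15 with voom, and leaving out a library gave 6 to 10. Between CD11c+ and CD11c- controls it went from 4 to 2 with surrogate variables, with 3 to 5 when a library was left out. After IC, LYVE1+ against CD11c- went from 9 to 4 with voom and to 5 in a fit of only these groups, with 4 to 10 when a library was left out, and LYVE1+ against CD11c+ ranged from 6 to 9. CD11c+ against CD11c- after IC went from 1 to 2 with DESeq2, 3 with voom, 2 in a fit of only these groups and 2 with surrogate variables, with 1 to 2 when a library was left out. The causes were not tested. Replicate numbers were not used as a pairing, since 0 of 15 pairs of groups had all correlations of same-numbered libraries over 0.1. Within a treatment these correlations were all positive, from 0.0013 to 0.29, and for CD11c- against CD11c+ controls they ran from 0.080 to 0.29. They do not show whether same-numbered libraries share animals. A replicate block was also fitted for LYVE1+ against CD11c-, LYVE1+ against CD11c+ and CD11c+ against CD11c-. It gave 0, 10 and 3 calls in controls and 9, 9 and 1 after IC. A block within treatment could not be fitted for IC contrasts and was not run there.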
